A study of Mus musculus with 8 samples.

Results

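Transfer RNA-derived fragments (tRFs) are short RNAs cut from tRNAs. The fragments described here come from tRNA Asn-GTT and tRNA His-GTG, the tRNAs that carry asparagine and histidine and are named by their amino acid and anticodon. They were taken as all sequences of the tRF table whose tRNA name held Asn or His, a rule that uses names only. This gave 90 of 2226 sequences, 20 from Asn-GTT and 70 from His-GTG, among 48 names. The table held fragments of 16 to 30 nt, and no sequence of either tRNA was contained in a sequence listed under another name.

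The sequences were counted in β-cells of male mice at 8 weeks of age. The db/db mice (BKS.Cg-Dock7m+/+LeprdbJ) have a defective leptin receptor and become obese and diabetic, and the wild type mice (BKS.Cg-Dock7m+/+) were the controls. Both strain names include the Dock7m allele. The β-cells were sorted from dispersed islets by their autofluorescence, and each of the 4 libraries per genotype came from a separate pool of islets of several mice, 2 for db/db. For wild type the sources differ on the number of mice in a pool. Errors and p-values therefore reflect the spread between pools, and the tRF table holds no marker genes against which the sorted cell type could be checked. Fewer cells with a fragment and less of it per cell cannot be told apart in such libraries.

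A mature tRNA begins at its acceptor stem, carries the anticodon in a loop near its middle and ends in CCA, 3 bases that are not encoded in the gene but added by the enzyme TRNT1, and to which the amino acid is attached. The tRNAs for asparagine, histidine, aspartate and tyrosine share an anticodon that starts with G, a base that can be replaced by the modified base queuosine. The histidine tRNA is further known for an extra G that the enzyme THG1 adds before its first encoded base. Nucleases such as angiogenin cut tRNAs in the anticodon loop, and fragments are grouped as 5′tRFs, 3′tRFs and internal fragments by the part of the tRNA they come from.

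RefSeq lists 13 genes for tRNA Asn-GTT and 10 for tRNA His-GTG on the mouse assembly GRCm38.p6, the build to which the reads had been aligned. The Asn-GTT genes, all 74 nt long, lie on 7 chromosomes, 9 outside any annotated gene, 3 in introns and 1 over an exon of Ndufs7 at chr10:80249159-80249232. The His-GTG genes, all 72 nt long, lie on chromosomes 2, 3 and 4, 7 outside genes and 3 in introns (of BC107364, Gm10685 and Nfib). A stretch of chromosome 3 holds 6 genes of each tRNA, those of Asn-GTT between 96322074 and 96497854 and those of His-GTG between 96410069 and 96500437. A fragment shared by several copies of a tRNA cannot be traced to 1 of them.

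The 70 His-GTG sequences overlapped well enough to be joined into 1 contig of 75 bases, which is the length of the annotated gene plus CCA. It is shown because all His-GTG positions below are counted on it from its first base, and its anticodon, at bases 34 to 36, is in capitals. All 70 sequences were placed on it. Its first 7 bases pair with bases 65 to 71, as in an acceptor stem, and the 5 bases on either side of the anticodon loop pair with each other. No His-GTG sequence began with an additional G before base 1, and whether such reads would have matched the reference tRNAs was not tested.
His-GTG contig: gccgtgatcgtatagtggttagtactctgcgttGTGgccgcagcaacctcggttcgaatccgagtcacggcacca

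The Asn-GTT sequences did not span the tRNA. Those ending in CCA, in capitals below, reached at most 30 bases back from the end, and 17 of the 20 sequences fell in that stretch. The remaining 3 were a 16 nt sequence that differs from the most abundant one by the substitution A7G (counted from the 5′ end, in capitals) and 2 sequences over the anticodon, which is in capitals as well.
Asn-GTT 3′ end: ttggtggttcgagcccacccagggacgCCA
Asn-GTT 16 nt: ccacccAgggacgcca
Asn-GTT 16 nt variant: ccacccGgggacgcca
Asn-GTT 19 nt: gcgcgttcggctGTTaacc
Asn-GTT 18 nt: cgcgttcggctGTTaacc

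These tRNAs thus left different sets of fragments. A sequence was called a 3′tRF if it ended in CCA, a 5′tRF if it carried the most abundant shared start of its tRNA, and internal otherwise. Asn-GTT gave 16 3′tRFs, 4 internal sequences and no 5′tRF. His-GTG gave 15 3′tRFs, 4 5′tRFs and 51 internal sequences, of which 43 covered the anticodon, 4 ended before it and 4 lay at the 3′ end but stopped short of CCA. Among the 4 internal sequences of Asn-GTT, 2 covered the anticodon and 2 stopped 1 base short of the full CCA.

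Each library held between 582165 and 2946290 tRF counts, of which Asn-GTT received 2827 to 18148 and His-GTG 1449 to 8252. Both tRNAs together made up 0.709 to 1.67% of the tRF counts of a library. By mean share Asn-GTT ranked 22nd of the 48 names at 0.678% and His-GTG 33rd at 0.389%, whereas Asp-GTC, which shares the queuosine-type anticodon, ranked first. The number of counts limits the precision for most single sequences, whose total over 8 libraries could be as low as 60.

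The level of the fragments was compared between genotypes with edgeR's quasi-likelihood test over all sequences, families or tRNAs of the table, with Benjamini-Hochberg adjustment, and a call needed an adjusted p below 0.1 and a fold change above 2. Levels are given as CPM, counts scaled to 1e6 on tRF totals scaled by the TMM method, and fold changes as log2 of db/db over wild type. The summed fragments of Asn-GTT measured 8923, 7618, 4748 and 6140 CPM in the wild type pools, in the order of library 1 to 4, and 7551, 5786, 7548 and 5569 CPM in the db/db pools. The genotypes overlapped, with means of 6857 ± 1808 and 6613 ± 1084 CPM (SD, n = 4 each) and a log2 fold change of -0.05 (SE 0.23, edgeR adjusted p = 0.902).

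The summed fragments of His-GTG measured 2578, 3433, 2761 and 4404 CPM in wild type and 5152, 3904, 3432 and 4229 CPM in db/db libraries. The wild type libraries 1 and 3 were the lowest and db/db library 1 the highest, with overlap between the genotypes. The means were 3294 ± 826 and 4179 ± 727 CPM (SD, n = 4 each), and the log2 fold change of 0.34 (SE 0.22) did not pass the test (edgeR adjusted p = 0.456) and was -0.10 when scaled to the library totals implied by the authors' RPM values. Of all 48 names, 2.08% were called lower and 2.08% higher, and neither of these was Asn-GTT or His-GTG.

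The balance between the tRNAs did not pass a test of its difference between genotypes. The log2 ratio of Asn-GTT to His-GTG counts, which needs no scaling between libraries, was 1.79, 1.15, 0.78 and 0.48 over the wild type pools and 0.55, 0.57, 1.14 and 0.40 over the db/db pools. The difference of -0.39 between the means had p = 0.286 by exact permutation of the genotype over all 70 assignments (two-sided), where the smallest possible p is 0.0286. It was -0.14 without wild type library 1, and between -0.58 and -0.30 without any other single library.

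Divided into classes, 1 of the 5 families of these tRNAs was called. The internal family of Asn-GTT was lower in db/db, where it measured 35.7, 57.8, 29.1 and 35.5 CPM against 69.4, 108.3, 82.3 and 96.5 CPM in wild type. All wild type libraries lay above all db/db libraries. On the log2 scale the change was -1.21 (SE 0.34, edgeR adjusted p = 0.0129), beside 15.3% of the 111 families called lower and 2.7% called higher. This family sums the 2 anticodon fragments and the 2 sequences 1 base short, and it is the latter that differed, as described below. When the short sequences were counted as 3′tRFs instead, an alternative added after seeing the data, the fold change was -0.12 and the call was lost.

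The 3′tRF family of Asn-GTT, which holds nearly all of its counts, measured 6768 ± 1812 CPM in wild type and 6574 ± 1092 CPM in db/db (SD, n = 4 each), with a log2 fold change of -0.04 (SE 0.29, edgeR adjusted p = 0.934). That of His-GTG measured 2460 ± 980 and 3315 ± 768 CPM, with a log2 fold change of 0.43 (SE 0.32, edgeR adjusted p = 0.476). Neither passed the test, and both directions depended on the scaling, at 0.24 for Asn-GTT by DESeq2 and -0.026 for His-GTG with the implied totals. The 5′tRFs of His-GTG were rare, at 39.1, 28.4, 57.1 and 28.6 CPM in wild type and 64.7, 46.9, 42.8 and 91.5 CPM in db/db. Wild type library 3 lay within the db/db range, and the log2 fold change of 0.70 (SE 0.38) gave an edgeR adjusted p of 0.243, although the family was called without that library (1.004, edgeR adjusted p = 0.0948). The internal family of His-GTG measured 796 ± 147 and 803 ± 195 CPM, with a log2 fold change of 0.01 (edgeR adjusted p = 0.976).

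**Figure D1:**
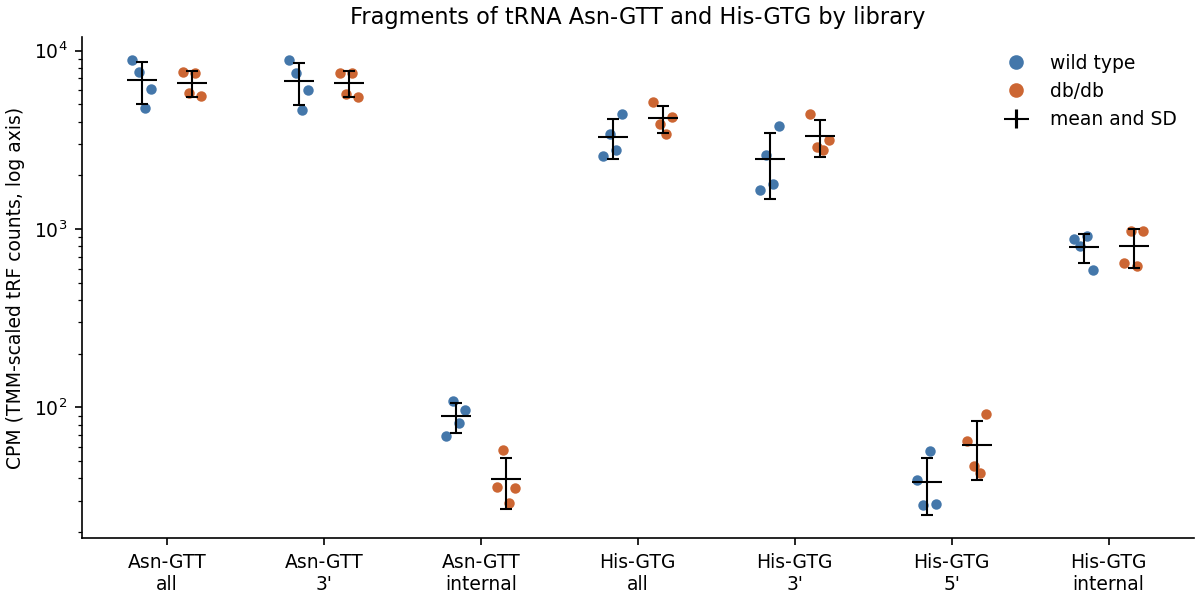
CPM on a log axis in the 4 wild type and 4 db/db libraries for all fragments and for each class of Asn-GTT and His-GTG, with points for libraries and bars for the mean and SD. Only for the internal family of Asn-GTT do all wild type libraries, at 69.4 CPM or more, lie above all db/db libraries, at 57.8 CPM or less.

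Of the 90 sequences, 61 passed the filter on low counts and were tested, 18 of Asn-GTT and 43 of His-GTG. By edgeR none was called higher and 2 were called lower in db/db, 1 of each tRNA, both of which stop short of the complete 3′ end. Over all 1832 sequences tested, 5.57% were called higher and 9.44% lower, so that 2 of 61 is no more than this background. At an unadjusted p below 0.05, 3 of the 61 sequences differed, against 390 of all 1832, and DESeq2 called the same 2 sequences. In 3 of the 61 the genotypes did not overlap, against 17.1% of all sequences tested.

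The 2 called sequences, which lack the last bases, had the largest fold changes of those tested. Both passed the filter on low counts through the wild type libraries, so this selection favours a lower level in db/db. Fragments that stop 1 base (Asn-GTT) or 5 bases (His-GTG) short are shown in pairs with the complete fragment of the same start, in which the missing bases are in capitals. In Asn-GTT the missing base was the final A of CCA. In His-GTG it was the last 5 bases, so that these fragments end at base 70, which pairs with base 2 in the acceptor stem, and lack CCA, the unpaired base before it and the base that pairs with base 1. For the third His-GTG fragment of this kind the table held no complete partner, since it would exceed 30 nt.
Asn-GTT 28 nt: tggtggttcgagcccacccagggacgcc
Asn-GTT 29 nt complete: tggtggttcgagcccacccagggacgccA
Asn-GTT 26 nt: gtggttcgagcccacccagggacgcc
Asn-GTT 27 nt complete: gtggttcgagcccacccagggacgccA
His-GTG 47 to 70: cctcggttcgaatccgagtcacgg
His-GTG 47 to 75 complete: cctcggttcgaatccgagtcacggCACCA
His-GTG 50 to 70: cggttcgaatccgagtcacgg
His-GTG 50 to 75 complete: cggttcgaatccgagtcacggCACCA
His-GTG 44 to 70: caacctcggttcgaatccgagtcacgg

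The His-GTG fragment 47 to 70 had 51, 71, 12 and 35 counts in the wild type pools and 4, 2, 11 and 4 counts in the db/db pools. In CPM it measured 58.5 ± 40.5 in wild type and 3.90 ± 0.470 in db/db (SD, n = 4 each), without overlap. These SDs cannot be compared directly, since the means lie far apart and the db/db values rest on 2 to 11 counts. On the log2 scale the change was -3.83 (SE 0.62, edgeR adjusted p = 8.74e-05). Its complete partner 47 to 75, the most abundant His-GTG fragment, did not pass the test, at 685 ± 330 and 852 ± 173 CPM (log2 fold change 0.31, SE 0.36, edgeR adjusted p = 0.669), and its fold change was -0.13 with the implied totals and -0.30 with the authors' effective library sizes.

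Within a library, the short fragment made up 17.96, 12.1, 4.01 and 2.30% of the sum of the short and complete fragments in the wild type pools, and 0.350, 0.503, 0.605 and 0.420% in the db/db pools. This share needs no scaling between libraries. Wild type libraries 1 and 2 were high, and wild type libraries 3 and 4 still lay above the db/db range. The fragment 50 to 70 missed the filter, with 14, 35, 8 and 13 counts in wild type and 0, 1, 6 and 3 in db/db, and its share was 16.7% ± 8.76 in wild type against 1.39% ± 0.990 in db/db (SD, n = 4 each). In db/db library 1 it had 0 of 169 counts, which allows a share of up to 1.78%, for counting error only. The fragment 44 to 70, with 17, 12, 8 and 10 counts in wild type and 2, 1, 3 and 7 in db/db, also had no overlap.

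Both of these His-GTG fragments below the filter were called once all sequences were tested, with log2 fold changes of -3.60 and -2.53 (edgeR adjusted p = 0.000879 and 0.0112). The table held only sequences with at least 6 counts in at least 4 libraries. All wild type counts of both fragments reached this minimum, but most of their db/db counts did not. This selection favours a lower level in db/db. The 4th short fragment of His-GTG was not called. It ends 6 bases short, at base 69, and had 10, 15, 7 and 15 counts in wild type and 3, 9, 43 and 9 in db/db, with a log2 fold change of -0.43 (SE 0.59, edgeR adjusted p = 0.725).
His-GTG 54 to 69: tcgaatccgagtcacg

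Together these 4 fragments made up 6.35, 5.24, 2.13 and 1.28% of the His-GTG counts in wild type and 0.169, 0.601, 0.763 and 0.483% in db/db libraries. The window was chosen after its values had been seen and was not tested. His-GTG was the 1 tRNA of the table with sequences 4 to 6 bases short and none 1 to 3 bases short, of 11 tRNAs with the former and 26 with the latter. Of all tested sequences 5 bases short, 6 of 20 were called lower, of which the other 5 came from Phe-GAA (4 of 4) and Gly-CCC (1 of 1). None was called from Pro-AGG (0 of 11), Asp-GTC (0 of 2) or iMet-CAT (0 of 1).

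The Asn-GTT fragment of 28 nt had 15, 36, 10 and 69 counts in wild type and 13, 5, 22 and 1 counts in db/db libraries, at 36.4 ± 17.5 and 7.90 ± 4.96 CPM (SD, n = 4 each). The genotypes did not overlap in CPM, and the change was -2.21 on the log2 scale (SE 0.61, edgeR adjusted p = 0.0142). Its complete partner of 29 nt, which ends in the full CCA, measured 805 ± 455 and 496 ± 153 CPM, and its log2 fold change of -0.70 (SE 0.40) did not pass the test (edgeR adjusted p = 0.321). The 26 nt fragment missed the filter, with 7, 31, 9 and 25 counts in wild type and 5, 2, 4 and 2 in db/db, and was called with all sequences tested (log2 fold change -2.97, edgeR adjusted p = 0.00173). All its wild type counts, but none of its db/db counts, reached the table's minimum of 6, so this selection also favours a lower level in db/db.

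The sequences 1 base short made up 0.440, 1.19, 0.679 and 1.19% of the counts of the Asn-GTT 3′ end in the wild type pools, and 0.231, 0.220, 0.144 and 0.0481% in the db/db pools. The lowest wild type library lay above the highest db/db library. The means of 0.875% ± 0.377 and 0.161% ± 0.0845 (SD, n = 4 each) differed by exact permutation (two-sided, p = 0.0286, the smallest it can give), with an adjusted p of 0.0323 over the 26 tRNAs with such sequences. Both short sequences reached the table's count minimum in every wild type library but not in every db/db library. That selection favours a lower share in db/db. A lower share was common to most tRNAs, since 23 of the 26 passed, and the difference of Asn-GTT ranked 20th in size. Among the other queuosine-type tRNAs the share fell from 20.3% ± 3.10 to 2.18% ± 0.587 in Tyr-GTA, whereas in Asp-GTC it was 0.311% ± 0.0262 and 0.263% ± 0.0534 and did not pass. Of all tested sequences 1 to 3 bases short, 144 of 168 were called lower and 0 higher.

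As a share of short and complete fragments of the same start, the Asn-GTT fragment of 28 nt made up 4.50% ± 0.820 in wild type against 1.51% ± 0.878 in db/db, and that of 26 nt took 4.40% ± 0.949 and 0.820% ± 0.369 (SD, n = 4 each). Neither overlapped between the genotypes. The share of tRFs in all counts of a library, from the same implied totals, ranged from 22.6 to 55.7% over the wild type and from 20.01 to 55.4% over the db/db pools. Among wild type libraries it was highest in libraries 1 and 2, where the His-GTG shares were also highest, but db/db library 3 reached 55.4% with a share of only 0.605% for the His-GTG fragment 47 to 70. Its part in the result was not tested.

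**Figure D2:**
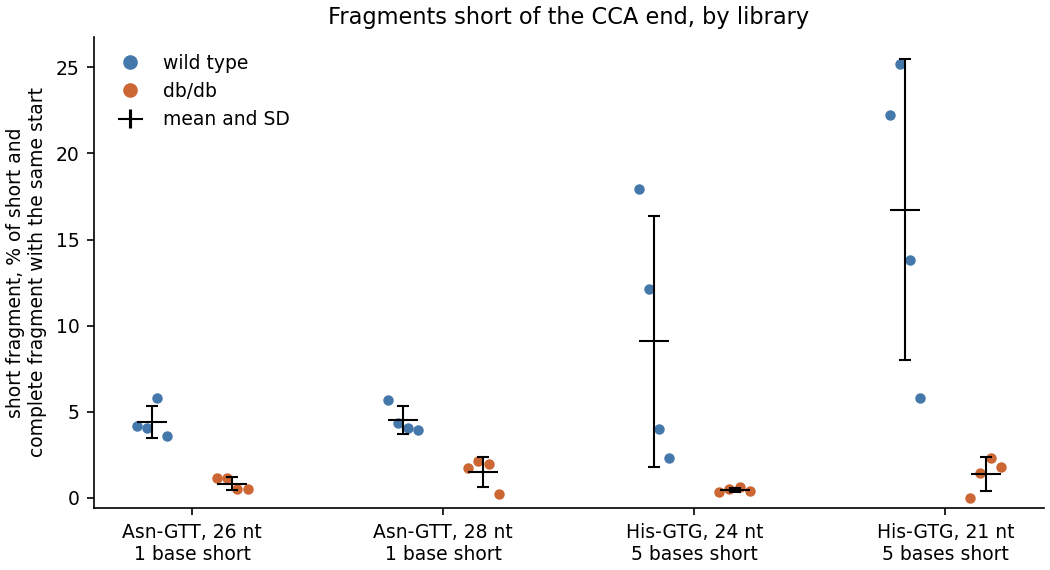
Share of the fragment short of CCA in the sum of the short fragment and the complete fragment that starts at the same base, in percent, for 2 fragments of Asn-GTT (1 base short) and 2 of His-GTG (5 bases short), with points for the 4 libraries per genotype and bars for the mean and SD. In all 4 pairs every wild type library lies above every db/db library, and the wild type spread is widest for His-GTG, from 2.30 to 17.96% for the 24 nt fragment. Each short fragment reached the table's count minimum in every wild type library but not in every db/db library. This selection favours a lower share in db/db.

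Among complete 3′tRFs, 16 and 29 nt were the most abundant lengths of both tRNAs, in opposite order. The shortest length in the table was 16 nt, so any shorter fragments are not seen here. The 16 nt fragment dominated Asn-GTT and took 43.4 to 78.9% of its counts, at 4108 ± 1983 CPM in wild type and 4574 ± 868 CPM in db/db (log2 fold change 0.16, SE 0.36, edgeR adjusted p = 0.840). Its variant with the substitution A7G was far rarer, at 26.5 ± 16.2 and 25.0 ± 6.43 CPM (log2 fold change -0.07, SE 0.53, edgeR adjusted p = 0.951). In His-GTG the most abundant fragment was the 29 nt one from base 47, with 16.1 to 26.02% of the counts. The 16 nt and 22 nt fragments from bases 60 and 54 followed, shown for their starts, with CCA in capitals. The 22 nt fragment begins within the T loop, bases 53 to 59, and the 16 nt fragment just after it.
His-GTG 60 to 75: ccgagtcacggcaCCA
His-GTG 54 to 75: tcgaatccgagtcacggcaCCA

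The 16 nt fragment of His-GTG measured 280 ± 89.2 CPM in wild type and 379 ± 65.9 CPM in db/db (log2 fold change 0.43, SE 0.33, edgeR adjusted p = 0.500). The 22 nt fragment measured 198 ± 54.1 and 297 ± 85.2 CPM (log2 fold change 0.58, SE 0.34, edgeR adjusted p = 0.347). All 15 His-GTG 3′tRFs were tested and none was called, with 14 of 15 fold changes above 0 and a median of 0.41 under the TMM scaling, while implied totals moved the median of all sequences to -0.36. The 21 nt fragment from base 55 did not overlap between genotypes, at 193 ± 52.2 and 300 ± 67.1 CPM, but did not pass the test (log2 fold change 0.63, SE 0.34, edgeR adjusted p = 0.291). Over all sequences tested the median was 0.00, and the 3′tRFs of all tRNAs had a median of 0.05.

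The 16 Asn-GTT 3′tRFs were all tested and none was called, with 12 of 16 fold changes below 0 and a median of -0.28. By length, in bins drawn after the values were seen, 3 of the 4 sequences of 16 to 18 nt and 1 of the 4 of 19 to 22 nt had fold changes above 0, the latter the highest of all at 0.27, and the 8 of 23 to 30 nt lay between -0.77 and -0.30. The 27 nt fragment, the third most abundant, measured 510 ± 340 CPM in wild type and 355 ± 50.2 CPM in db/db (log2 fold change -0.53, SE 0.39, edgeR adjusted p = 0.487), and its fold change was -0.014 without wild type library 2. The wild type libraries varied widely here. Fragments of 24 to 30 nt made up 33.1% ± 16.9 of the complete 3′ counts in wild type, from 15.2 to 47.7%, and 22.9% ± 3.64 in db/db, from 18.7 to 27.3% (SD, n = 4 each).

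The count-weighted mean length of the Asn-GTT 3′tRFs was 17.8, 21.5, 18.7 and 21.8 nt in wild type against 19.3, 18.6, 18.3 and 18.9 nt in db/db libraries. Wild type libraries 2 and 4 held the longer fragments, and the genotypes overlapped. The difference of -1.19 nt was the most negative of the 44 tRNAs measured but did not pass the test (exact permutation p = 0.371, adjusted p = 0.880). It was -0.558 nt without wild type library 4, -0.680 nt without wild type library 2 and -1.90 nt without wild type library 1. For His-GTG the mean length was 23.8 nt ± 0.708 and 23.8 nt ± 0.215 (SD, n = 4 each), with an exact permutation p of 0.886 (adjusted p = 0.994).

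**Figure D3:**
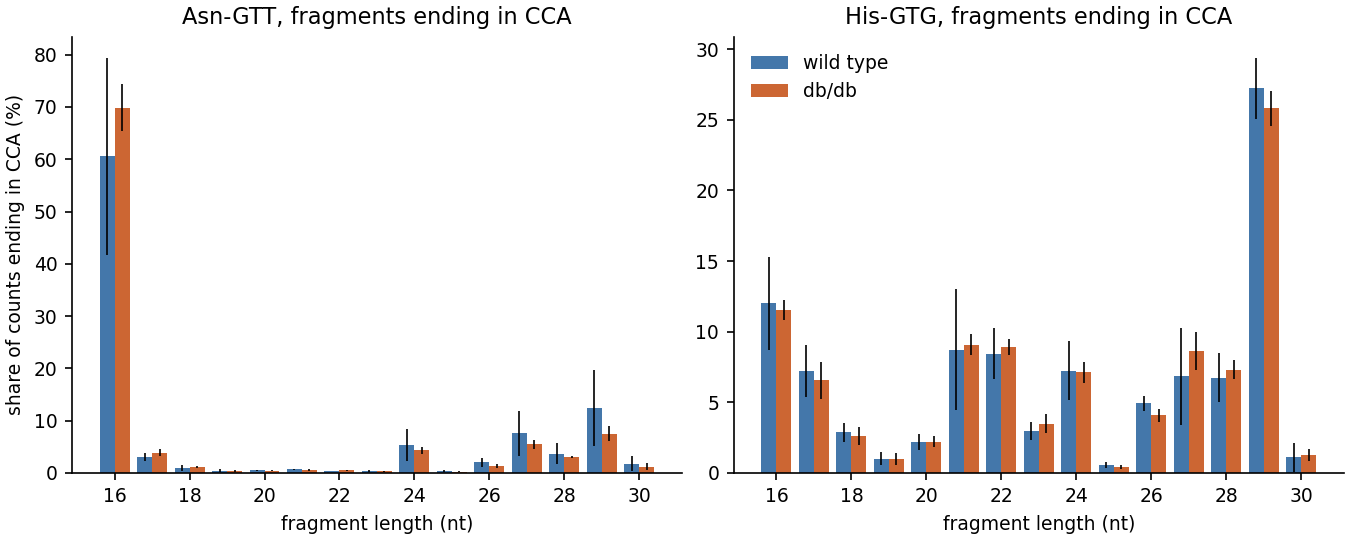
Share of the counts ending in CCA, in percent, at each fragment length from 16 to 30 nt for Asn-GTT (left) and His-GTG (right), with bars for the mean of 4 wild type and 4 db/db libraries and lines for the SD. Asn-GTT is concentrated at 16 nt, the shortest length in the table, with a second group at 24 to 30 nt. His-GTG is spread over many lengths with its maximum at 29 nt, and both tRNAs have few fragments of 19 and 25 nt.

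The internal fragments of His-GTG were mostly anticodon fragments. The 43 sequences that cover the anticodon began at 13 different bases between 10 and 28 and ended at 15 different bases between 37 and 56. Of their 5102 counts, 32.3% began at base 22 and 26.8% ended at base 44. A further 14.7% ended at base 39. The fragment from 22 to 44, with the anticodon in capitals, combines the most used start and end and was the most abundant.
His-GTG 22 to 44: gtactctgcgttGTGgccgcagc
It measured 62.4 ± 29.9 CPM in wild type and 68.0 ± 20.3 CPM in db/db (log2 fold change 0.13, SE 0.42, edgeR adjusted p = 0.889).

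Of the 43 anticodon-covering sequences, 20 were tested and 0 were called, with fold changes from -0.71 to 1.47 and a median of 0.33. The highest was that of the 19 nt fragment from 22 to 40, chosen here after its values were seen, with 1, 5, 10 and 2 counts in wild type and 17, 11, 24 and 29 in db/db (log2 fold change 1.47, SE 0.68, edgeR adjusted p = 0.215). Wild type library 3 overlapped the db/db libraries in CPM. Without that library this fragment and the 27 nt fragment from 27 to 53 were called higher (log2 fold changes 2.45 and 2.26, edgeR adjusted p = 0.0179 and 0.0191). Neither was called with all libraries or without any other single library. As a share of all His-GTG counts, the anticodon-covering fragments took 18.4% ± 8.30 in wild type against 17.5% ± 4.69 in db/db (SD, n = 4 each).

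The 2 anticodon fragments of Asn-GTT start 1 base apart and end at the same base. The 19 nt one had 11, 6, 18 and 18 counts in wild type and 10, 17, 23 and 17 in db/db (log2 fold change -0.19, SE 0.58, edgeR adjusted p = 0.887). The 18 nt one missed the filter, with 6 to 13 counts in wild type and 8 to 21 in db/db. Together they took 0.505% ± 0.376 and 0.464% ± 0.267 of the Asn-GTT counts (SD, n = 4 each), with overlap between the genotypes. The internal share of the Asn-GTT counts, to which the short 3′ ends also belong, was 1.38% ± 0.419 and 0.624% ± 0.271 (exact permutation p = 0.0571, adjusted p = 0.143 over 40 tRNAs). The internal share of His-GTG was 25.99% ± 9.75 and 19.6% ± 5.51 (exact permutation p = 0.314, adjusted p = 0.433).

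Toward the 5′ end of His-GTG, 4 sequences began at base 1 and ended at bases 26, 27, 29 and 30, before the anticodon loop. Longer fragments, such as those cut within the anticodon loop, exceed the 30 nt of the table and were not analysed here. The shortest and the longest are shown, as they differ only in the last 4 bases.
His-GTG 1 to 26: gccgtgatcgtatagtggttagtact
His-GTG 1 to 30: gccgtgatcgtatagtggttagtactctgc
The 30 nt fragment had 10, 7, 12 and 9 counts in wild type and 33, 8, 39 and 39 in db/db (log2 fold change 0.89, SE 0.55, edgeR adjusted p = 0.387). The 27 nt fragment had 3, 11, 5 and 6 counts in wild type and 17, 9, 26 and 29 in db/db (log2 fold change 1.06, SE 0.58, edgeR adjusted p = 0.311). In CPM both fragments overlapped between genotypes. The 26 nt and 29 nt fragments missed the filter, with at most 20 counts in a library. The 5′tRF share of the His-GTG counts was 1.27% ± 0.653 in wild type against 1.47% ± 0.464 in db/db (exact permutation p = 0.600, adjusted p = 0.714 over 25 tRNAs).

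The 4 His-GTG sequences that end before the anticodon but begin after base 1 all had negative fold changes, from -1.12 to -0.69, without a call (lowest edgeR adjusted p = 0.319). Of these, 2 end at base 33, the base just before the anticodon. They are shown for that shared end, and were chosen after their values were seen.
His-GTG 16 to 33: tggttagtactctgcgtt
His-GTG 17 to 33: ggttagtactctgcgtt
The first had 26, 21, 7 and 11 counts in wild type and 11, 11, 10 and 12 in db/db, and the second 28, 31, 10 and 10 in wild type and 6, 19, 11 and 21 in db/db. Wild type libraries 1 and 2 held the most of both. The most abundant of the group, the 25 nt fragment from 4 to 28, had 71 counts in wild type library 2 and 11 to 36 in the other wild type libraries, against 5 to 57 in db/db (log2 fold change -0.69, SE 0.57, edgeR adjusted p = 0.541).

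**Figure D4:**
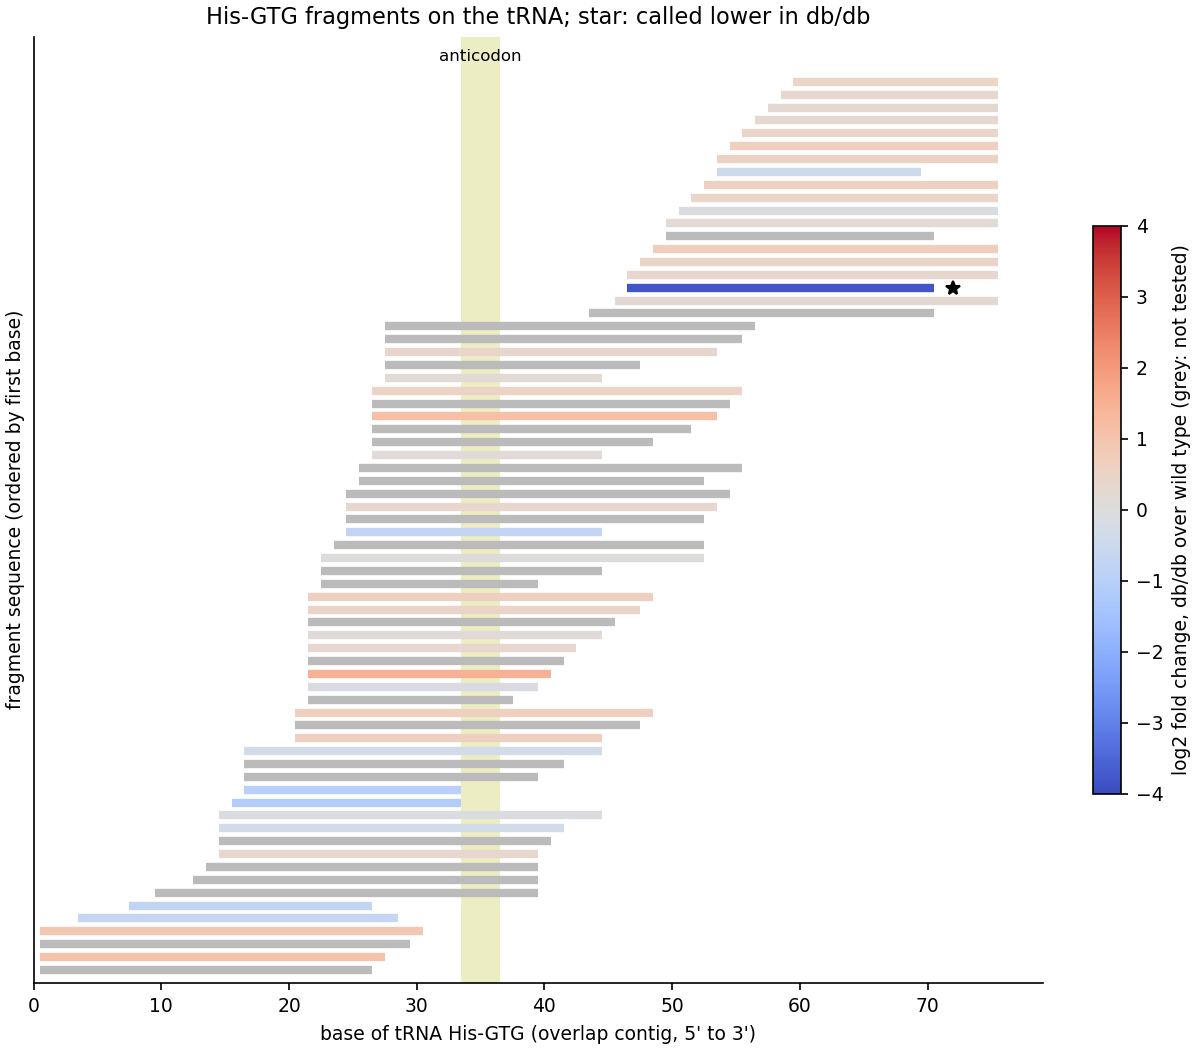
The 70 His-GTG sequences as lines from their first to their last base on the 75-base tRNA contig, ordered by first base and coloured by the log2 fold change of db/db over wild type, with the 27 untested sequences in grey and the anticodon shaded. The 1 called sequence, starred at a log2 fold change of -3.83, ends at base 70, while the fragments that reach base 75 have fold changes from -0.07 to 0.67.

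Across the 8 libraries, the log2 CPM of all Asn-GTT fragments was most like that of Met-CAT (Pearson r = 0.75), Ile-TAT (0.73) and Arg-TCG (0.73), and that of His-GTG most like Thr-TGT (0.84), Arg-CCG (0.79) and Ala-TGC (0.69), among 47 other names. Between Asn-GTT and His-GTG it was -0.09. These values describe 8 libraries that share their scaling and are given without a test.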

How the data were processed

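Small RNA of 8 β-cell pools was sequenced by the authors single-end from QIAseq miRNA libraries, which tag molecules with unique identifiers. The authors describe using reads longer than 16 nt, although the table also holds sequences of 16 nt. Reads were collapsed by identifier, aligned to GRCm38.p6 and matched with bowtie 1, without mismatches, to mature tRNAs of GtRNAdb. Positions with modified bases that block or alter reverse transcription can therefore lower the number of matching reads. The deposited table gives counts of unique molecules per sequence, which were used in all tests. The authors' RPM, rounded to whole numbers and used as a score, served only to derive library totals, and the authors' log2 normalised values (method not stated in the sources), only to derive effective library sizes. A column with the authors' direction of change was not used.

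Families were sums of counts over a tRNA and a class. 5′tRFs carried the most abundant first 8 bases shared by at least 4 sequences of a tRNA, not found further inside another. Sequences were joined and 3′ ends placed by overlaps of at least 12 bases. The counts entered edgeR 4.0.16 (R 4.3.3, quasi-likelihood test with genotype as its single term, filterByExpr with a minimum count of 10). DESeq2 1.42.0 was an alternative. The procedure was tested on simulated counts. Within-library shares were compared by exact permutation tests and adjusted over all tRNAs with that share. The 1 to 3 short share is relative to the counts of complete and short 3′ ends.

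Libraries were assigned to genotypes by the library names in the labels, which give no batch, pairing or strain detail. The rule for the members uses names only, but these tRNAs and the lists were chosen with earlier results of these data known. Sequences named are, per tRNA and class, the 3 of highest mean CPM, and those called with the largest change, and any others were chosen after their values were seen. RefSeq supplied the tRNA genes, with GENCODE vM21 for the genes they overlap.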

Additional observations from a re-analysis of the deposited data

Results flagged for a closer look

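Of 58 groups of 4 libraries examined, 5 held a library far from the others, where chance alone gives about 1 in 20. The 16 nt fragment of Asn-GTT measured 7041 CPM in wild type library 1, against 2662 to 3406 CPM in the other wild type libraries. The 22 nt fragment of His-GTG from base 54 measured 278.8 CPM in wild type library 4, against 167 to 176 CPM, and 425.0 CPM in db/db library 1, against 252 to 259 CPM. The 25 nt fragment of His-GTG from base 4 measured 96.1 CPM in wild type library 2, against 18.5 to 27.8 CPM. The 5′tRF share of His-GTG was 2.16% in db/db library 4, against 1.20 to 1.26% in the other db/db libraries.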

How the results depend on the processing

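Both called sequences were called under all scalings, tests and filters tried and without any 1 library. With no filter, 2 Asn-GTT and 3 His-GTG sequences were called lower, although the table itself held only sequences with at least 6 counts in at least 4 libraries. Leaving out 1 library gave 1 to 2 Asn-GTT and 1 to 3 His-GTG sequences called lower and 0 to 2 His-GTG sequences called higher, the latter without wild type library 3. The internal family of Asn-GTT lost its call with DESeq2 (-0.98), through the fold limit, and with the tolerant class rule (-0.12), added after seeing the data.

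The median of all sequences was 0.00, and became -0.36 under scaling to implied totals and -0.51 under the authors' effective library sizes. Under these, in that order, 3′tRF His-GTG gave -0.026 and -0.22, internal His-GTG -0.38 and -0.60, all His-GTG fragments -0.10 and -0.30, the Asn-GTT 16 nt fragment -0.14 and -0.23, His-GTG 47 to 75 -0.13 and -0.30, and His-GTG 22 to 44 -0.10 and -0.22. His-GTG 60 to 75 gave -0.050 with the latter. Without a normalisation factor, 3′tRF Asn-GTT gave 0.11 and all Asn-GTT fragments 0.10, and DESeq2 gave 0.24 for the former. None of these results was called under any of them.

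Leaving out 1 library gave log2 fold changes of -0.12 to 0.15 for 3′tRF Asn-GTT, -0.13 to 0.14 for all Asn-GTT fragments, -0.10 to 0.18 for internal His-GTG, 0.54 to 1.004 for 5′tRF His-GTG, -0.53 to 0.22 for the Asn-GTT 19 nt fragment, -0.082 to 0.47 for His-GTG 22 to 44 and -1.03 to 0.14 for His-GTG 4 to 28. The 5′tRF share of His-GTG then differed by -0.0304 to 0.469 percentage points and its 3′tRF length by -0.162 to 0.315 nt. The Asn-GTT short share differed by -0.859 to -0.608 percentage points, and its exact permutation p was 0.0571 (adjusted p = 0.0646 to 0.0675) without any 1 db/db library, although the genotypes still did not overlap, against 0.0286 without any 1 wild type library. Classes by position on reference tRNAs were not run, since no genome sequence was used here. No paired analysis was possible because samples of different genotype carry no common replicate number.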
